A study of Homo sapiens with 8 samples.

Results

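Of the 4147 regions bound by PHF20 in U2OS cells, 3562 lay at promoters of protein-coding genes, and 587 of these overlapped a region bound by PHF20L1. These 587 shared coding promoter peaks were chosen by position alone. A PHF20 peak was a member when at least 1 bp of it was covered by a PHF20L1 peak and it touched a promoter window, which ran from 1000 bp before to 500 bp past a transcription start site (TSS) of a protein-coding gene. They made up 16.5% of the PHF20 peaks at coding promoters (Wilson 95% interval 15.3% to 17.7%), and the other 2975 peaks at coding promoters served as the comparison. The overlap that defined the members is not itself a result, and the width of a peak is bound up with its chance of overlapping another, so widths are described without a test.

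The data came from ChIP-Seq of 2 homologous proteins over-expressed with a 3xHA tag in U2OS, a human osteosarcoma cell line. For PHF20 there were 2 HA ChIP libraries and 1 input library, all with the tag at the N terminus (N-3xHA). For PHF20L1 there were 3 HA ChIP libraries and 2 input libraries, of which 1 ChIP and 1 input library had an N-3xHA tag and 2 ChIP libraries and 1 input library a C-3xHA tag. Cells carrying the expression vector were sorted for GFP before library preparation, and the PHF20L1 list does not separate the tag positions. The authors combined the replicates into 1 list of peak positions per protein, on hg38, with no height, score or read count. The depth of the libraries is therefore not known from these lists, and no spread between replicates can be given. The tests below compare sets of regions, and their p-values and intervals cover counting error over regions only.

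PHF20 and PHF20L1 are readers of methylated lysine that carry Tudor domains and a PHD finger. Each can be a subunit of the nonspecific lethal (NSL) complex, in which the acetyltransferase KAT8 acetylates histone H4 at promoters of broadly expressed genes. Many such promoters hold binding sites of ETS factors, a family that binds sequences with a GGAA core, or E-boxes. An E-box with the core CACGTG and a flanking GT is known as a CLEAR element and is the site of TFEB and related factors in promoters of lysosomal genes.

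The sites shown first are of the ETS 8-mer CCGGAAGT and the CLEAR-type E-box GTCACGTG, each counted on both strands over the full width of the PHF20 peak. The ETS 8-mer was in 164 of 587 shared peaks (27.9%) and 462 of 2975 other peaks (15.5%). The E-box was in 71 (12.1%) and 151 (5.08%). Both were present in 15 shared peaks (2.56%) and 19 other peaks (0.639%). Shared peaks were wider, with a median of 974 bp against 572 bp, so these counts cover unequal lengths and were not tested. The sites below are from hg38 and belong to 7 of the 8 members with the widest PHF20L1 peaks among those 15. For each motif, the copy nearest the PHF20L1 centre is shown with 11 bases on either side, and the capitals mark the 8-mer. The E-boxes of PPCS, EME1 and CCNT1 and both sites of OSGEPL1 lay in the PHF20 peak but outside the PHF20L1 peak.
NUDCD3 ETS, chr7:44490701-44490730 (minus strand): acgagcacggaCCGGAAGTtccgcagccgc
NUDCD3 E-box, chr7:44490919-44490948 (plus strand): gggcgtgcagtGTCACGTGactgctcggat
EME1 ETS, chr17:50373218-50373247 (minus strand): ccacgcagggcCCGGAAGTagatctcctga
EME1 E-box, chr17:50372958-50372987 (plus strand): acccaggatgtGTCACGTGaccagcgacac
GNPTG ETS, chr16:1351890-1351919 (minus strand): gaccacggggaCCGGAAGTggcgtccggcg
GNPTG E-box, chr16:1351924-1351953 (minus strand): gccgccgcgcgGTCACGTGaagtgacggtc
PPCS ETS, chr1:42456926-42456955 (minus strand): ctcagcaaaacCCGGAAGTgcattctcctc
PPCS E-box, chr1:42456049-42456078 (plus strand): tgaaccccggcGTCACGTGacgatcgcggg
PDE12 ETS, chr3:57556254-57556283 (plus strand): ctcttcgctagCCGGAAGTcgcgagatctg
PDE12 E-box, chr3:57556013-57556042 (minus strand): gatagggtggtGTCACGTGttccgcttcgt
CCNT1 ETS, chr12:48716835-48716864 (minus strand): cgaggtgcattCCGGAAGTaggtcctttga
CCNT1 E-box, chr12:48716923-48716952 (plus strand): gacgcaggcgcGTCACGTGaccgttgggcg
OSGEPL1 ETS, chr2:189762771-189762800 (plus strand): gaacctggcgcCCGGAAGTgatgtcatcgg
OSGEPL1 E-box, chr2:189762553-189762582 (minus strand): gcgctacccaaGTCACGTGggttcagcctg

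The sites lay at varied places. At NUDCD3, which encodes a NudC-like cochaperone of dynein, both sites were upstream of the gene and outside annotated exons, with the ETS site centred 58 bp and the E-box 276 bp upstream of the coding TSS nearest to each, counting the starts of all annotated transcripts. At GNPTG, a subunit of the enzyme that tags lysosomal hydrolases with mannose 6-phosphate, the E-box centre was 1 bp upstream of the TSS nearest to it, inside an untranslated region of another transcript, and the ETS site 26 bp upstream, outside coding genes and exons. At PPCS, an enzyme of coenzyme A synthesis, the ETS site lay in a coding exon 140 bp downstream of the TSS nearest to it. At EME1, a partner of the endonuclease MUS81, the ETS site lay 4 bp downstream of a TSS of the gene. At CCNT1, the cyclin of the elongation factor P-TEFb, the ETS site was 143 bp upstream of one TSS of the gene and the E-box 60 bp downstream of another. The 2 sites of OSGEPL1 were in the untranslated part of a transcript, 6 and 199 bp downstream of the TSS nearest to each.

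LAMP1 and NUDCD3, which the study chose for follow-up, have longer runs of these sequences. LAMP1 encodes an abundant glycoprotein of the lysosomal membrane, and its promoter had both the widest shared PHF20 peak and the widest shared PHF20L1 peak. The 300 bases shown for LAMP1 and NUDCD3 lie inside their PHF20L1 peaks, upstream of the gene and outside annotated exons, on the strand of the gene, with the ETS and E-box 8-mers (CCGGAAGT, GTCACGTG and the palindrome TCACGTGA, on either strand) in capitals.
LAMP1 promoter, chr13:113296919-113297218 (plus strand): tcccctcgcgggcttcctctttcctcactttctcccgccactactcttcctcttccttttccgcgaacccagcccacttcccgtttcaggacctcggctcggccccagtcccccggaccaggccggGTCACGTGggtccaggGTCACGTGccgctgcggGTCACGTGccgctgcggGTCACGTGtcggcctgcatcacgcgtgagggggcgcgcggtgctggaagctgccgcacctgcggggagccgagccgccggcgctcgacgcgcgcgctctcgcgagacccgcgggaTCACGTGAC
NUDCD3 promoter, chr7:44490659-44490958 (minus strand): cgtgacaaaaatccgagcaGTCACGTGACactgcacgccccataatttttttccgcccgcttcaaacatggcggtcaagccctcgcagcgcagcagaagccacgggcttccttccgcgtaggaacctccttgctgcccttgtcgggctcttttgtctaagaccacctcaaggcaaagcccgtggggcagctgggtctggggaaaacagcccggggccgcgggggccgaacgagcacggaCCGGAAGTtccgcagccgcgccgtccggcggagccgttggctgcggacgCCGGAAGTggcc

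The LAMP1 stretch holds 5 CACGTG cores, all of them CLEAR-type and 1 of them in the palindrome, and no ETS 8-mer. The NUDCD3 stretch holds 1 CACGTG core and 2 ETS 8-mers. In NUDCD3 the core is flanked by GT and AC, so that the same E-box reads as GTCACGTG on both strands and it was counted once. Of the 5 genes chosen by the study, LAMP1, NUDCD3 and NAGPA had a shared peak, whereas PIGT (PHF20 peak of 1242 bp) and VAMP3 (402 bp) were among the other peaks.

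**Figure D1:**
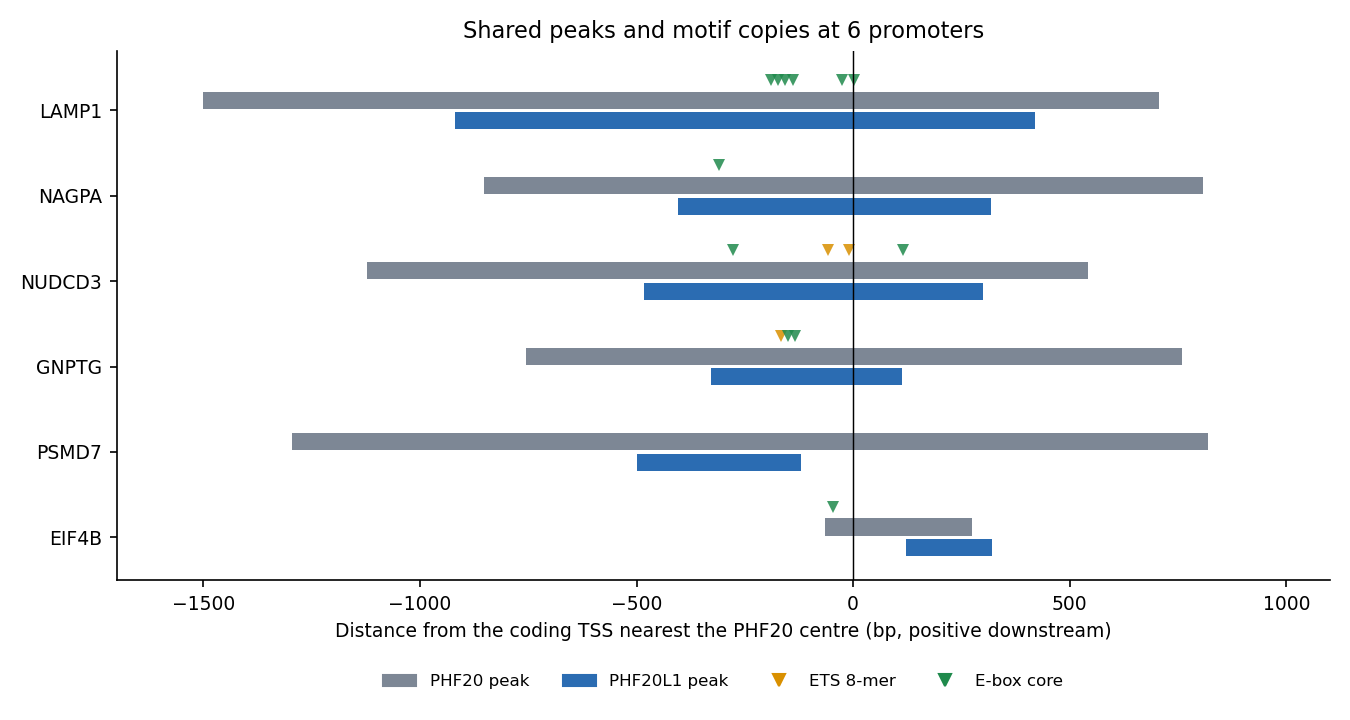
Positions of the PHF20 peak (grey), the PHF20L1 peak (blue), ETS 8-mers (orange) and CACGTG cores (green) at 6 shared promoters, as distance in bp from the coding TSS nearest the centre of the PHF20 peak, positive downstream. At LAMP1 all 6 cores lay between 192 bp upstream and 4 bp downstream of the TSS and under both peaks, whereas PSMD7 has a PHF20 peak of 2114 bp with no copy of either motif.

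At LAMP1 (ENSG00000185896.11, plus strand), the 2207 bp PHF20 peak began 1501 bp upstream of the TSS and ended 705 bp past it, and the 1339 bp PHF20L1 peak began 919 bp upstream and ended 419 bp past it. Its 6 CACGTG cores were the most of any shared peak, and the most in an other peak was 4. At NAGPA (ENSG00000103174.13, minus strand), which encodes the enzyme that uncovers the mannose 6-phosphate tag, the 724 bp PHF20L1 peak lay inside a PHF20 peak of 1661 bp, with 1 CACGTG core in it. This peak also covered the promoter of the divergent gene ALG1, a mannosyltransferase of the dolichol pathway. PSMD7, a subunit of the proteasome lid, shows the other extreme. Its PHF20 peak of 2114 bp was the second widest among the members, and the PHF20L1 peak inside it covered 379 bp (17.9%), from 499 to 121 bp upstream of the TSS nearest the PHF20 centre. At EIF4B, a translation initiation factor, both peaks were narrow (340 and 200 bp) and overlapped by 155 bp, the least of all members.

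Shared PHF20 peaks had a median width of 974 bp (interquartile range 757.5 to 1189.5 bp, range 209 to 2207 bp), against 572 bp (383 to 836 bp, range 200 to 1905 bp) for the other peaks. The PHF20L1 peaks within them were narrower, with a median of 326 bp (255 to 441 bp, range 200 to 1339 bp). In 541 of the 587 members (92.2%) the PHF20L1 peaks lay wholly inside the PHF20 peak, and in 11 the PHF20L1 peak was the wider one. PHF20L1 covered a median of 37.4% of the PHF20 peak (27.4% to 49.0%), and at least 50% of it in 138 members. One PHF20L1 peak was present in 579 members and 2 in the other 8, which gives 595 PHF20L1 peaks in all. Across 10 classes of increasing PHF20 width, the shared percent went from 1.68% (0.772% to 3.62%) at 200 to 275 bp to 46.6% (41.5% to 51.8%) at 1148 to 2207 bp, with each class above the one before.

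**Figure D2:**
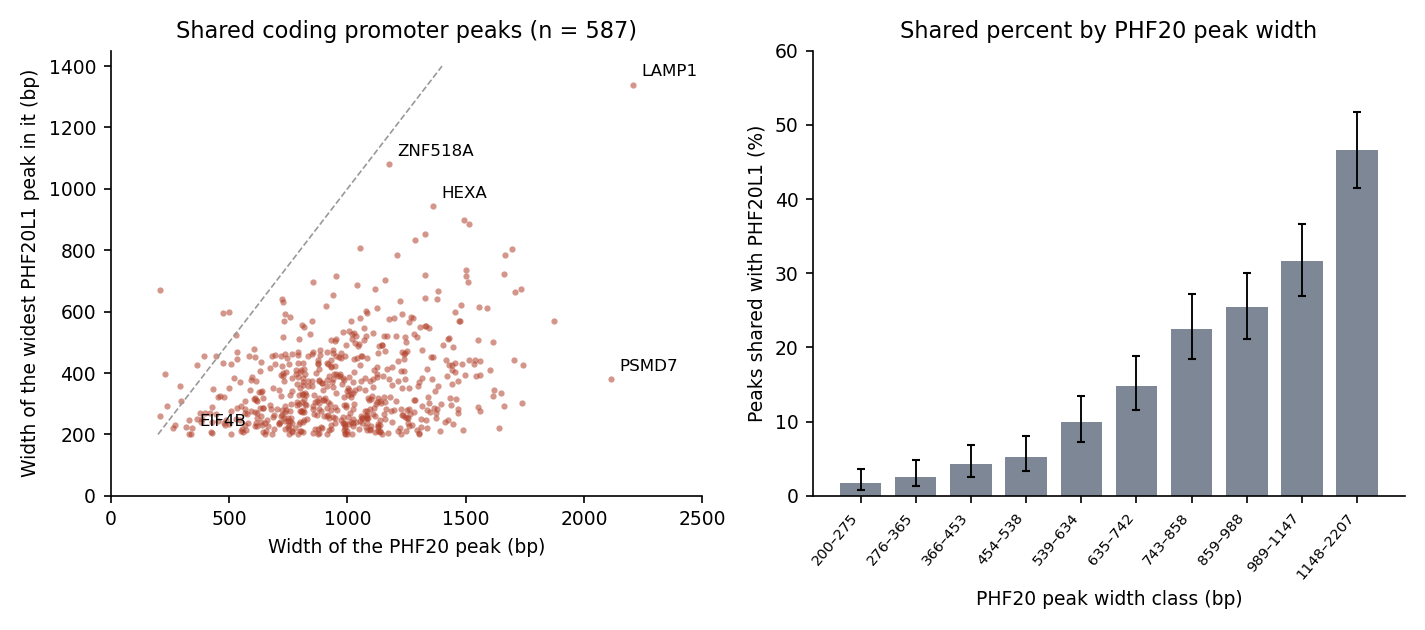
Left, width in bp of each of the 587 shared PHF20 peaks against the width of the widest PHF20L1 peak in it, with a dashed line at equal widths. Right, percent of PHF20 coding promoter peaks shared with PHF20L1 in 10 classes of PHF20 width, with Wilson 95% intervals, from 1.68% in the narrowest to 46.6% in the widest class.

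The widest PHF20L1 peaks of the set were those of LAMP1 (1339 bp), ZNF518A (1081 bp), HEXA (943 bp), CLCN7 (898 bp), YIPF4 (885 bp), FEM1B (852 bp), RNF220 (834 bp) and ANKRD40 (808 bp). LAMP1, HEXA, a subunit of a lysosomal hydrolase, and CLCN7, a chloride-proton exchanger of the lysosome, are lysosomal genes. The peaks of LAMP1 and CLCN7 held 6 and 1 CLEAR-type E-boxes, and those of ZNF518A, YIPF4, FEM1B, RNF220 and ANKRD40 held none. YIPF4 is a Golgi membrane protein, ZNF518A a zinc finger protein, and FEM1B and RNF220 act in ubiquitin ligation. The widest PHF20 peaks after LAMP1 and PSMD7 were at NRDC (1871 bp), PPCS (1741 bp), ADO (1736 bp), SMARCE1 (1733 bp), TMEM199 (1707 bp) and NUDC (1705 bp). NRDC is a metalloendopeptidase, ADO a thiol dioxygenase, SMARCE1 a subunit of SWI/SNF chromatin remodelling complexes, TMEM199 an assembly factor of the proton pump V-ATPase and NUDC a dynein-associated chaperone. Their PHF20L1 peaks measured 302 bp (ADO) to 674 bp (SMARCE1), so the order by PHF20 width was not the order by PHF20L1 width.

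Members just inside the rule overlapped PHF20L1 by 155 bp at EIF4B, 171 bp at TMEM167B and 177 bp at CYB561. The other peaks nearest to a PHF20L1 peak were separated from it by 91 bp at VPS35L, 100 bp at PCBP1 and 105 bp at ZKSCAN2, and each of these genes also has a further PHF20 peak that is a member. Only 23 of the 2975 other peaks lay within 500 bp of a PHF20L1 peak and 25 within 1000 bp. Few peaks thus stood near the limit, and requiring an overlap of at least 50% of the shorter peak, or the PHF20L1 centre inside the PHF20 peak, kept all 587. At the edge of the promoter window, members overlapped it by as little as 58 bp (CBX8), 125 bp (PARVA) and 203 bp (HEXIM1). The shared peaks that lay closest outside it missed it by 42 bp (FBXW4), 1656 bp (FOXB1) and 2120 bp (TMEM107). Of all 672 PHF20 peaks that overlapped a PHF20L1 peak, the 587 members were 87.4%, while 59 were at promoters of noncoding genes only and 26 outside promoters.

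The shared peaks sat over the TSS. The nearest coding TSS was inside the PHF20 peak in 557 of 587 members (94.9%), against 76.0% of the other peaks. It was inside the PHF20L1 peak in 408 members (69.5%). Shared PHF20 peaks were wider and so can span a TSS more often, and this contrast was not compared within width classes. The centre of the PHF20 peak was within 100 bp of the nearest coding TSS in 63.7% of shared and 47.4% of other peaks (Fisher's exact test, two-sided, odds ratio 1.95, adjusted p = 2.1e-12). When shared and other peaks were compared within 10 width classes the odds ratio was 1.18 (exact conditional test, adjusted p = 0.23). The median distance was 60 bp in shared and 108 bp in other peaks. Within the members, the PHF20L1 centre was farther from the TSS than the PHF20 centre in 360 of 587 (61.3%), nearer in 225 and equal in 2, with a median distance of 108 bp for PHF20L1. This count was chosen after its values were seen and was not tested.

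**Figure D3:**
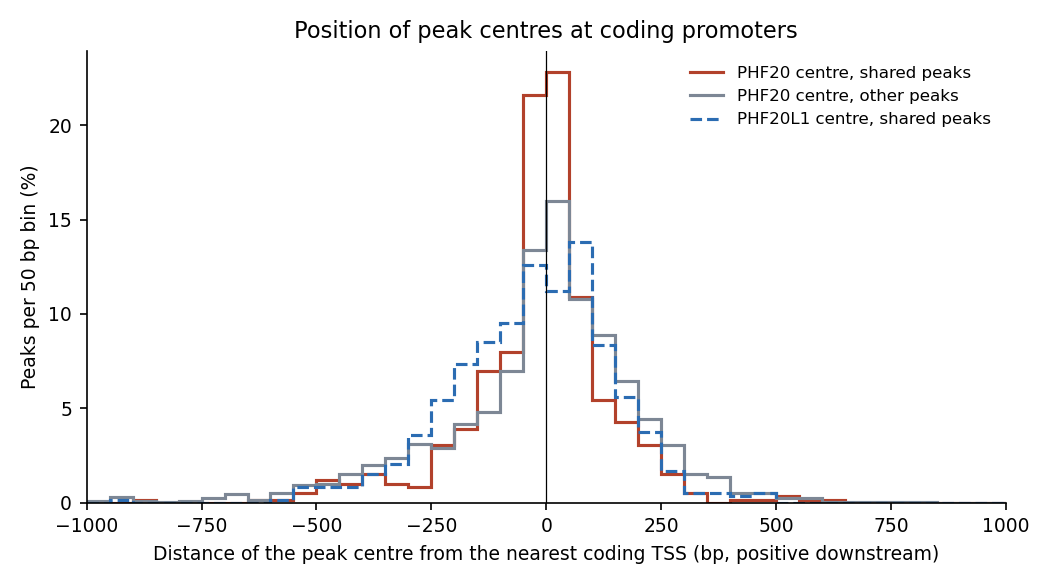
Percent of peaks in 50 bp bins of the distance from the peak centre to the nearest coding TSS (bp, positive downstream), for PHF20 centres of shared peaks (red), PHF20 centres of other peaks (grey) and PHF20L1 centres of shared peaks (dashed blue). Within 100 bp lay 63.7%, 47.4% and 47.4% of the centres.

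No side was favoured past the threshold. In members, the PHF20L1 centre was upstream of the PHF20 centre in 301 and downstream in 280, with 6 equal (48.2% downstream, Wilson 95% interval 44.2% to 52.3%, two-sided exact binomial test, p = 0.41). The offset of the centres had a median of 79 bp without regard to direction. PHF20 centres were downstream of the TSS in 48.4% of shared and 53.6% of other peaks (odds ratio 0.810, Fisher's exact test, adjusted p = 0.032), a difference that was not seen within width classes (odds ratio 1.03, exact conditional test, adjusted p = 0.88). Divergent promoters, with a coding gene on the opposite strand starting within 1000 bp, made up 21.8% of shared and 15.6% of other peaks (odds ratio 1.51, Fisher's exact test, adjusted p = 6.6e-04). Within width classes the odds ratio was 1.04 (exact conditional test, adjusted p = 0.88).

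GC content was lower in shared peaks. Within 250 bp of the PHF20 centre, shared peaks had a median GC content of 62.5% (interquartile range 57.7% to 67.7%) and other peaks 65.7% (59.9% to 71.1%). GC content was above the median of both sets, 65.1%, in 35.6% of shared and 52.7% of other peaks (odds ratio 0.495, Fisher's exact test, adjusted p = 2.0e-13). Within width classes the odds ratio was 0.659 (exact conditional test, adjusted p = 2.9e-04), and in peaks of the widest class of 3 alone, a choice made after seeing the data, it was 0.616 (Fisher's exact test, adjusted p = 8.3e-04). The median number of CpG dinucleotides was 40 in shared and 44 in other peaks. A count above the median of 43 was found in 38.0% of the former and 50.2% of the latter (odds ratio 0.609, Fisher's exact test, adjusted p = 1.9e-07), and within width classes the odds ratio was 0.727 (adjusted p = 0.0054). The call for the CpG count was lost in peaks at or above the median width (odds ratio 0.767, Fisher's exact test, adjusted p = 0.051) and in the widest class of 3 (odds ratio 0.791, adjusted p = 0.26). The observed/expected ratio of CpG, which corrects for the content of C and G, was above its median in 50.8% of shared and 49.8% of other peaks (odds ratio 1.04, Fisher's exact test, adjusted p = 0.82). Within classes of CpG count its odds ratio was 1.65 (exact conditional test, adjusted p = 1.8e-05). At a like CpG count a higher ratio means less C and G, so this value is not separate from the lower GC content. Genes longer than the median were slightly less frequent at shared peaks (45.7% against 50.9%, odds ratio 0.812, Fisher's exact test, adjusted p = 0.032), which was not past the threshold within width classes (odds ratio 0.839, adjusted p = 0.21). The number of annotated transcripts did not pass (odds ratio 1.02, Fisher's exact test, adjusted p = 0.86).

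Shared and other peaks were next compared by their 8-mers. For each 8-mer, read on either strand, the peaks that held it in the 250 bp on each side of the PHF20 centre were counted. Of 29600 8-mers, 9 were more frequent in shared peaks (0.0304% of those tested) and 7 less frequent (0.0236%) by two-sided Fisher's exact test at an adjusted p below 0.05. The 9 fell into an ETS group, an E-box group and 3 sequences without a name here. The ETS group held 4 words with CGGAA on 1 strand, ACCCGGAA, ACTTCCGG (the reverse complement of CCGGAAGT), CACTTCCG and CGCCGGAA. The E-box group held the palindrome TCACGTGA and CACGTGAC (the reverse complement of GTCACGTG). The other 3 were TAGGAACA, which holds GGAA without the C before it, GGCCCATA and AAAAGAGG. The 7 that were less frequent were made of G and C apart from 1 T in CCCTCCCG and in CCGCCTCC, and were led by CCGGGCCG, which was in 65 of 587 shared and 595 of 2975 other peaks (odds ratio 0.498, Fisher's exact test, adjusted p = 0.0012).

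The ETS 8-mer CCGGAAGT was present in 144 of 587 shared peaks (24.5%, Wilson 95% interval 21.2% to 28.2%), 453 of 2975 other peaks (15.2%, 14.0% to 16.6%) and 5.93% of all coding promoters (odds ratio of shared to other 1.81, Fisher's exact test, adjusted p = 0.0012). Here and below, all coding promoters are windows around the outermost TSS of each gene, bound genes included. They are thus not centred as the peak windows are. ACCCGGAA, the 8-mer with the smallest p, was present in 13.1% of shared and 6.08% of other peaks (odds ratio 2.33, Fisher's exact test, adjusted p = 7.3e-04). ETS sequences were more frequent in wide peaks of either kind. In the widest of 3 width classes (815 to 2207 bp), CCGGAAGT was present in 26.8% of shared peaks (22.7% to 31.4%) and 25.4% of other peaks (22.5% to 28.6%). Across width classes its odds ratio was 1.20 (exact conditional test, p = 0.11 before adjustment). The odds ratio of ACCCGGAA was 1.74 (exact conditional test, p = 4.0e-04 before adjustment, adjusted p = 0.73).

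The CLEAR-type E-box GTCACGTG was present in 59 of 587 shared peaks (10.1%, 7.87% to 12.7%), 156 of 2975 other peaks (5.24%, 4.50% to 6.10%) and 3.39% of all coding promoters (odds ratio 2.02, Fisher's exact test, adjusted p = 0.048). The palindrome TCACGTGA, which can share its core with it, was present in 6.98% (5.19% to 9.34%), 2.86% (2.32% to 3.52%) and 1.53% (odds ratio 2.55, Fisher's exact test, adjusted p = 0.022). In contrast to the ETS 8-mer, the odds ratios changed little within width classes, to 1.90 and 2.34. This was not particular to E-boxes. The odds ratio went from 8.85 to 8.99 for TAGGAACA, from 6.03 to 6.18 for GGCCCATA and from 3.09 to 3.49 for AAAAGAGG. These words were in only 12, 14 and 26 shared peaks. Among other peaks the CLEAR-type E-box was about as frequent in the narrowest of 3 width classes (5.31%) as in the widest (5.42%), whereas among the widest shared peaks it reached 11.1% (8.40% to 14.6%). No 8-mer passed the adjusted threshold within width classes (0 in either direction, exact conditional test, 1342 at an unadjusted p below 0.05, against 1836 without classes). For the E-boxes the exact p-values there were 5.9e-04 (adjusted p = 0.73) and 2.8e-04 (adjusted p = 0.6).

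**Figure D4:**
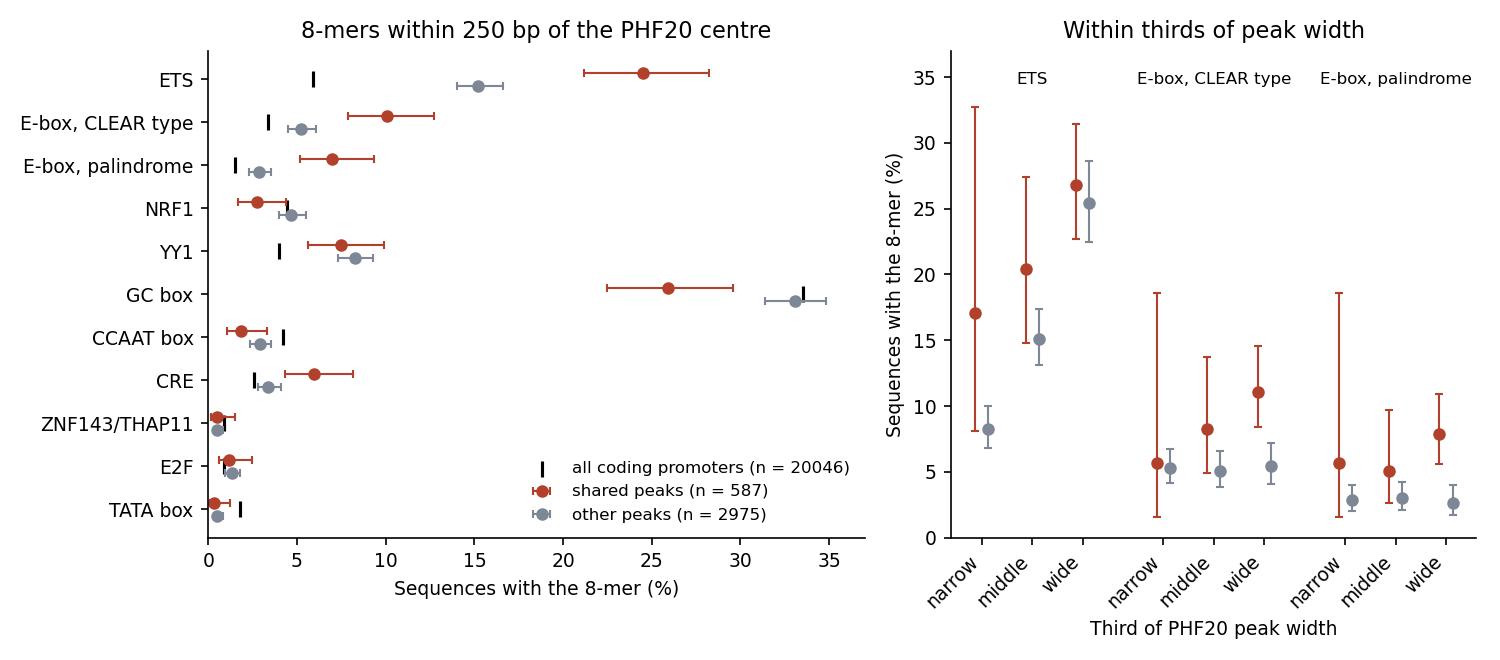
Left, percent of sequences within 250 bp of the PHF20 centre that hold each of 11 motif 8-mers, in shared (red) and other (grey) peaks with Wilson 95% intervals. Black ticks mark all coding promoters, within 250 bp of the outermost TSS of each gene. Right, the ETS and E-box 8-mers in 3 classes of PHF20 width, where the ETS intervals of wide shared and other peaks overlap and the E-box intervals of wide peaks do not.

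Over the whole length of the peaks, the density of CLEAR-type E-boxes was 0.169 per kb in shared peaks and 0.0948 per kb in other peaks, counting overlapping copies once. That of the palindrome was 0.110 and 0.0562 per kb. ETS 8-mers had 0.341 and 0.280 copies per kb, and CACGTG cores with any flank 0.341 and 0.294 copies per kb. Density divides by length but does not compare peaks of like width. By density, the sets differed more in the flanked E-boxes than in the bare core.

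The other motifs did not pass after adjustment over all 8-mers. The CRE palindrome TGACGTCA, bound by CREB and ATF factors, was in 5.96% of shared and 3.39% of other peaks (odds ratio 1.80, Fisher's exact test, adjusted p = 0.47). For the GC box GGGGCGGG of SP and KLF factors the percents were 25.9 and 33.1 (odds ratio 0.706, adjusted p = 0.23), and around the nearest TSS rather than the peak centre its odds ratio of 0.615 was past the threshold (Fisher's exact test, adjusted p = 0.0023). The NRF1 8-mer GCGCATGC was found in 2.73% of shared and 4.67% of other peaks (odds ratio 0.572, Fisher's exact test, adjusted p = 0.74). The YY1 8-mer AGATGGCG was in 7.50% and 8.27%, the CCAAT box AGCCAATC in 1.87% and 2.89%, and the ZNF143/THAP11, E2F and TATA box 8-mers in 1.31% or less of either set. A match to an 8-mer describes the sequence and does not show that a factor was bound there.

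No tested motif was closer to the peak centre of either protein past the threshold. In members with 1 copy of the ETS 8-mer, it was nearer the PHF20L1 centre in 63 and nearer the PHF20 centre in 72 (two-sided exact binomial test, p = 0.49, adjusted p = 1 over 8 motifs). For the CLEAR-type E-box these numbers were 26 and 27, and for the palindrome 25 and 22. None of the 8 motifs with at least 10 such members passed (exact binomial test, adjusted p = 1 for each).

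The shared peaks lay at the promoters of 747 of 20046 protein-coding gene entries (3.73%), since 151 members touched the windows of 2 genes and 8 those of 3 or more. PHF20 had a peak at 4148 genes, so 18.0% of its coding genes had a shared peak, and this percent is the background for each gene list below. Lists are given by counts without a test, and neighbouring genes can share 1 peak. PHF20 peak widths differed between the lists, and the percents were not adjusted for width. Over all other peaks the median width was 572 bp. Among other peaks of the lists it was 926 bp for mitochondrial ribosomal proteins, 903 bp for proteasome genes and 848 bp for mitochondrial import. It was 508 bp for the spliceosome list and 382 bp for histones.

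The lysosome list, of hydrolases, membrane proteins and V-ATPase subunits, had the largest share, with 13 of 35 PHF20-bound genes (37.1%). These were the V-ATPase genes ATP6V1A, ATP6V1C1, ATP6V1E2, ATP6V1G1 and ATP6V1H, which build the peripheral domain of the pump, and LAMP1, HEXA, CLN3, CTSA, GNPTG, NAGPA, PPT1 and TPP1. CTSA is a protective carboxypeptidase, and PPT1, TPP1 and CLN3 are mutated in neuronal ceroid lipofuscinoses. Of the 13 shared peaks, 9 held a CLEAR-type E-box (69.2%), against 7 of the 23 other peaks at genes of this list (30.4%) and 12.1% of all shared peaks over their full widths. The median PHF20 width was 1125 bp in these shared and 602 bp in these other peaks. ATP6V1A, ATP6V1E2, PPT1 and TPP1 had no CLEAR-type E-box in a shared peak. Without the promoters of this list, a comparison added after seeing the data, the odds ratio of the CLEAR-type E-box in shared against other peaks was 1.83 (Fisher's exact test, p = 5.3e-04, adjusted p = 0.24). That of the palindrome was 2.36 (Fisher's exact test, p = 8.7e-05, adjusted p = 0.12). The list does not hold CLCN7, so its promoter, with a CLEAR-type E-box in the PHF20 peak, stayed in this comparison. Beyond the site of GNPTG shown above, the CLEAR-type E-boxes of 4 further members of the list, with their 11 flanking bases, were the following.
NAGPA E-box, chr16:5033939-5033968 (minus strand): ctgggacttgaGTCACGTGaggcgagccca
CTSA E-box, chr20:45891299-45891328 (minus strand): catgtgtacgaGTCACGTGaactccggcgc
ATP6V1G1 E-box, chr9:114587698-114587727 (plus strand): tacgctgtgcgGTCACGTGacaacgggggc
CLN3 E-box, chr16:28492059-28492088 (minus strand): acgcgggtgctGTCACGTGatccgacaaac

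All 4 lay in an untranslated region of some annotated transcript. The centre of each E-box was close to the start of some coding transcript. The TSS nearest to it was 6 bp away at NAGPA, where it belongs to ALG1, 1 bp at CTSA, 7 bp at ATP6V1G1 and 0 bp at CLN3.

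Mitochondrial ribosomal proteins were next, with 18 of 53 PHF20-bound genes shared (34.0%), 12 of them of the MRPL and 6 of the MRPS series. Their PHF20L1 peaks ranged from 211 bp at MRPL19 to 667 bp at MRPS23. A CLEAR-type E-box was in 2 of the 18 (11.1%, against 12.1% of all shared peaks), at MRPS18C and at MRPL27, whose promoter is divergent with EME1. The ETS 8-mer was in 4 (22.2%, against 27.9%). Cytosolic ribosomal proteins had 10 of 44 (22.7%), with the widest PHF20L1 peak at RPL37 (597 bp) and none with a CLEAR-type E-box.

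Proteasome genes had 8 of 24 bound genes shared (33.3%), namely PSMB1 and PSMB7 of the catalytic core, PSMC2 of the ATPase ring, PSMD7, PSMD12 and PSMD14 of the regulatory particle, the activator PSME3 and the assembly chaperone PSMG3. An ETS 8-mer was in 5 of these 8 peaks and a CLEAR-type E-box in 0, against 27.9% and 12.1% of all shared peaks. Of the 19 other peaks of this list, 6 held the ETS 8-mer and 0 the E-box. Several of these peaks served a neighbour too. The PSMB1 peak also covered the promoter of TBP, the TATA-binding protein, that of PSMC2 the promoter of the chaperone DNAJC2, and that of PSME3 the promoter of the autophagy regulator BECN1.

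The spliceosome list had 11 of 33 (33.3%), among them the Sm and U2 genes SNRPB, SNRPA1 and SNRPG and the SF3B subunits SF3B3 and SF3B6. An ETS 8-mer was in 6 of 11 and a CLEAR-type E-box in 0, against 27.9% and 12.1% of all shared peaks. Of the 26 other peaks of this list, 8 held the ETS 8-mer and 2 the E-box. Kinetochore and anaphase-promoting complex genes had 6 of 19 (31.6%), which were ANAPC1, ANAPC2, CENPP, CENPQ, NSL1 and NUF2. NSL1 is a kinetochore protein of the MIS12 complex and is not a subunit of the NSL complex.

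Autophagy genes had 6 of 23 (26.1%), with AMBRA1, ATG13, ATG14, BECN1, GABARAP and NBR1. The CLEAR-type E-box was in the peaks of ATG14, a subunit of the lipid kinase that starts autophagosomes, and GABARAP, a ubiquitin-like protein of their membrane. The GPI anchor and dolichol glycosylation list had 7 of 28 (25.0%), including PIGC, PIGG and PIGO of anchor synthesis. SNARE and VPS genes of vesicle traffic had 10 of 41 (24.4%), of which STX16 and its readthrough entry share a peak, with a PHF20L1 peak of 616 bp at VPS33A, a subunit of tethering complexes at the lysosome, and 2 CLEAR-type E-boxes in its PHF20 peak.

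Lists near the background were RNA polymerase subunits (2 of 9, 22.2%), nuclear pore genes (7 of 32, 21.9%), UBE2 and USP genes (8 of 37, 21.6%), EIF genes (5 of 24, 20.8%), developmental transcription factors (3 of 15), Mediator and TFII genes (6 of 32, 18.8%), chaperones (5 of 28, 17.9%), DNA repair (8 of 45, 17.8%) and respiratory complex I (4 of 24, 16.7%). Below it were aminoacyl-tRNA synthetases (3 of 19, 15.8%), respiratory complexes II to V (5 of 35, 14.3%), zinc finger ZNF genes (22 of 167, 13.2%), DNA replication (2 of 18, 11.1%) and mitochondrial import (2 of 19, 10.5%). With so few genes in a list, 1 or 2 peaks move these percents considerably.

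Some lists had no shared peak although PHF20 was bound, but each held few bound genes, against a background of 18.0%, and none was tested. These were the cilium transport and BBSome list with 0 of 13 bound genes, histones with 0 of 9, and the NSL complex itself with 0 of 5, which were KANSL2, KANSL3, WDR5, MCRS1 and PHF20L1. The PHF20 peaks at the promoters of these NSL genes ranged from 412 bp at KANSL3 to 1306 bp at PHF20L1. Median PHF20 widths were 594 bp for the cilium list, 382 bp for histones and 512 bp for the NSL list. E-box binding bHLH zipper factors had 0 of 2, and neither the 3 genes of the MSL list nor the 564 olfactory receptor and keratin genes had a PHF20 peak at a promoter. Among ETS factor genes, the 1 shared promoter was that of GABPA, which is divergent with the ATP synthase gene ATP5PF and holds 1 ETS 8-mer in its 1230 bp PHF20 peak.

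**Figure D5:**
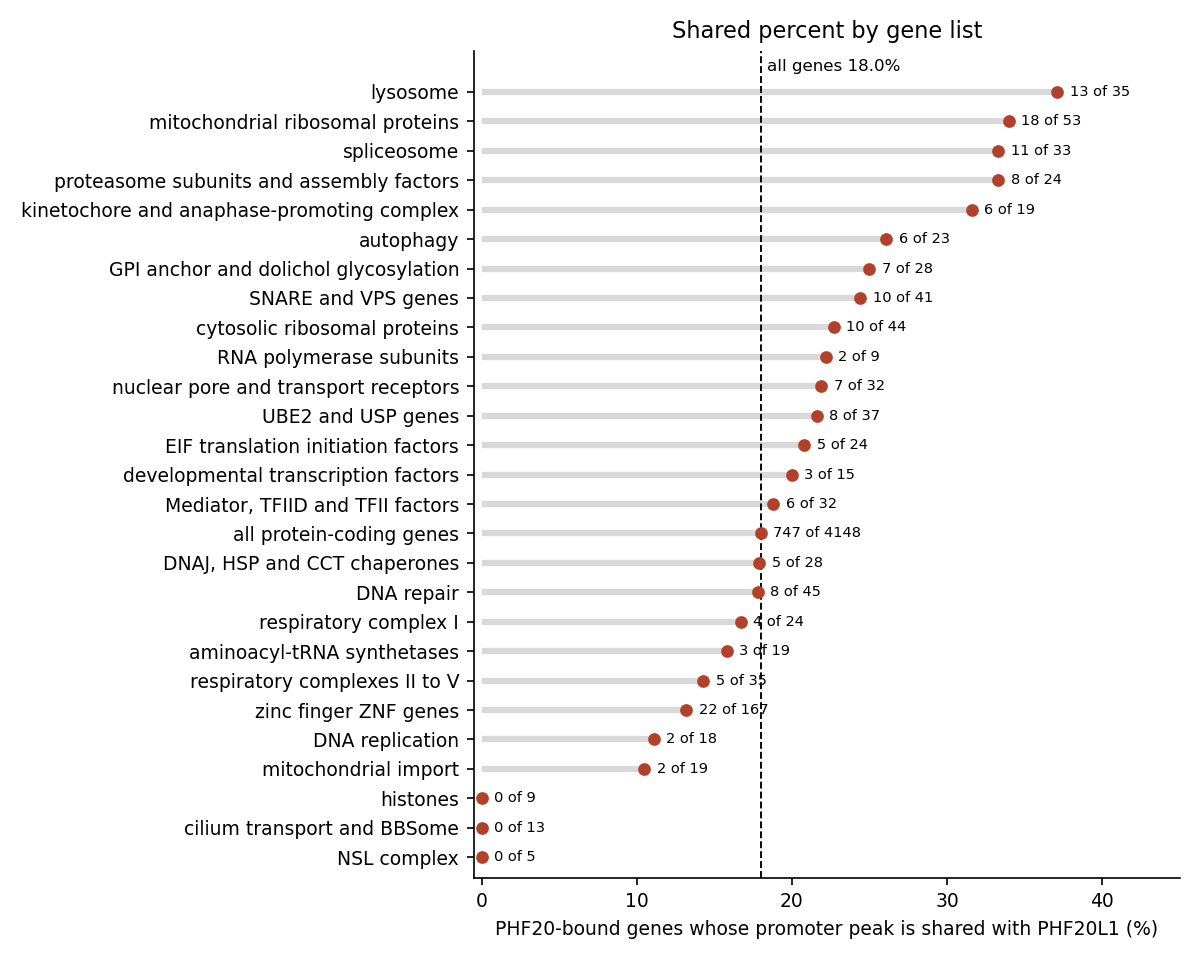
Percent of PHF20-bound genes whose promoter peak is shared with PHF20L1, for gene lists with at least 5 bound genes, with the counts beside each point. The dashed line marks 18.0% for all 4148 PHF20-bound coding genes, and the lists reach from 0 to 37.1% for the lysosome list.

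Across chromosomes, the shared percent of PHF20 coding promoter peaks ranged from 9.85% on chromosome 14 (13 of 132) to 25.5% on chromosome 13 (13 of 51), so members were found on each chromosome with such peaks listed.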

How the data were processed

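Per the labels and the methods of the study, the authors mapped single-end reads to hg38 with Bowtie 1.1.2, kept unique and deduplicated reads, called peaks with MACS2 2.2.7.1 against input (extension 200 bp) and removed blacklisted regions. Peaks that passed a p-value cut of 0.01 in the best replicate and overlapped peaks at 0.05 in the others formed 1 deposited list per protein, and 1 PHF20 replicate without usable peaks was dropped. The deposited values are start and end positions only, so the depth is not known from them.

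TSSs came from GENCODE release 44, a later release than the authors used, and sequences from hg38. Coordinates count from 1. Shared and other peaks were compared by two-sided Fisher's exact tests, with Benjamini-Hochberg adjustment over 8 features or over all 8-mers present in at least 10 sequences, at 0.05. Within-class tests were exact conditional tests over 10 classes of width or CpG count, with Mantel-Haenszel odds ratios. Features were split at the median of both sets. Python 3.11.15, numpy 2.4.6, scipy 1.17.1, pysam 0.24.0 and matplotlib 3.10.9 were used, and the steps were tested on simulated data. A planned feature, the share of repeat bases, was not measured because the genome used here carries no repeat mask.

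The members, gene lists, motifs and tests were chosen with earlier results of these data known. Genes named are the 5 that the study chose for follow-up, NSL genes, those at the 8 widest PHF20 and PHF20L1 peaks, those at the limits of the rule, the 8 members with both motifs and the widest PHF20L1 peaks, and members of the lists. The sites of 1 named member are not reported here.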

Additional observations from a re-analysis of the deposited data

How the results depend on the processing

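No paired analysis was possible because each protein has 1 list that already merges its libraries, which also means that no library could be left out. Of 261 values recomputed under other settings, 199 kept their side of the threshold, or stayed within the limits set for a value or a count. A change of direction was counted among these where neither value passed the threshold. The 199 also include values that could not change. The settings on an overlap of 50% of the shorter peak and on the PHF20L1 centre kept the same 587 and 2975 peaks. A divergent distance of 500 bp altered only the divergent feature. The shared percent rose from 16.5% to 18.7% with PHF20 peaks of at least 300 bp and to 28.2% with those at or above the median width. The counts of 8-mers more and less frequent in shared peaks, 9 and 7, were 1 and 1 with 100 bp on each side of the centre. They were 4 and 13 around the nearest TSS and 0 and 0 with peaks at or above the median width. With peaks of at least 300 bp they were 2 and 2. With 1 outermost TSS per gene they were 4 and 6, and within classes of CpG count 4 and 0. Within classes of width they were 0 and 0, as they were within classes of width and CpG count. Without the promoters of the lysosome list they were 6 and 4.

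The lower GC content of shared peaks was past the threshold under every setting run, with odds ratios from 0.482 to 0.659. The odds ratio of a high CpG count lost its call with peaks at or above the median width (0.767) and in the widest class of 3 (0.791). Within classes of CpG count it was 0.893, but these classes nearly fix that feature, so the setting cannot test it. The odds ratio of the observed/expected ratio passed within those classes (1.65), where a higher ratio means less C and G. The odds ratio of a centre within 100 bp of the TSS lost its call with peaks at or above the median width (1.30), in the widest class of 3 (1.22) and within width classes (1.18), and that of divergent promoters in the same settings (1.18, 1.16 and 1.04) and with outermost TSSs (1.02). For gene length the call was lost in these 3 width settings (0.912, 0.881 and 0.839), with peaks of at least 300 bp (0.855) and within CpG classes (0.831). For centres downstream of the TSS the direction reversed in the 3 width settings (1.03, 1.11 and 1.03), and the call was lost with peaks of at least 300 bp (0.841), the outermost TSS (0.885) and CpG classes (0.851). The odds ratio of the ETS 8-mer ranged from 1.15 to 1.89, that of the CLEAR-type E-box from 1.60 to 2.40 and that of the palindrome from 2.10 to 2.75, above 1 in each setting run, with adjusted p from 6.8e-04 to 1, 0.031 to 0.95 and 0.013 to 0.83. The cause of these changes was not tested. The width classes and the settings on wide peaks leave fewer or differently weighted comparisons. The lists hold no heights or read counts, so width could not be set against enrichment or depth. A PHF20 peak without a PHF20L1 peak fell short of the authors' thresholds for the latter and may still be bound. The settings on width and CpG together, on the widest class of 3 and without the lysosome list were added after seeing the data.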
